A study of Mus musculus with 8 samples.

Results

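The activator protein 1 (AP-1) and early response factors of astrocytes were followed here as a named list of 9 genes, Fos, Fosl1, Fosl2, Jun, Junb, Jund, Atf3, Egr1 and Klf10. They were taken by name from the deposited count table, in which all 9 were found among 13937 genes, and all 9 were among the 13509 genes that passed the filter on low counts. The rule used names, not measured values. Of the 9, Klf10, Fosl1 and Fosl2 rose and Atf3 fell after TGF-β in wild-type (WT) astrocytes, while Fos, Jun, Junb, Jund and Egr1 did not pass the test. In RGC-32 knockout (KO) astrocytes the log2 fold changes had the same direction for the same 4 genes, and no difference between the genotypes passed the test.

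AP-1 is a dimer of basic leucine zipper proteins, in which a FOS family protein pairs with a JUN family protein, or JUN proteins pair with each other or with ATF proteins. Many of these genes, like those of the zinc finger factors EGR1 and KLF10, are immediate early genes, transcribed within minutes of a stimulus through factors that are already present and then shut off again. TGF-β acts through receptor kinases that phosphorylate SMAD proteins and can also activate MAP kinases, which act on AP-1. In astrocytes AP-1 is known for its part in responses to injury and inflammation.

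The data were bulk RNA sequencing libraries of primary astrocytes on the C57BL/6 strain, prepared from the brains of WT pups and of pups lacking RGC-32, at post natal day 1, after the meninges had been taken off. Cells were grown in serum, shaken to detach oligodendrocyte precursors and neurons, and deprived of serum overnight. The control cultures then stayed untreated, and the others received 10 ng/ml of TGF-β over 24 h. Each genotype therefore had 2 control and 2 TGF-β libraries, 8 in all. All 4 groups share the culture in serum and the starvation, and the sampling time is late for genes of the immediate early class. The replicates are described as biological, but nothing says from which litters or how many pups each came, so the p-values measure the spread between these libraries. In bulk RNA, fewer cells of a type and less RNA per cell cannot be told apart.

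Total counts on genes ran from 14920561 to 18956038 per library. Rgcc, the gene of RGC-32, had 80 and 94 counts in WT control, 215 and 362 in stimulated WT cultures, 61 and 28 in unstimulated RGC-32 KO cultures, and 64 and 26 in stimulated RGC-32 KO cultures, so every RGC-32 KO library was below every WT library and none was at 0. All 10 astrocyte markers on the list used were detected, led by Gfap, an intermediate filament protein, at 1196 to 2650 CPM (counts scaled to library size). Their summed level was 4620 and 4847 CPM in WT control, 3705 and 3585 in stimulated WT cultures, 5342 and 6005 in unstimulated RGC-32 KO cultures, and 4384 and 4716 in stimulated RGC-32 KO cultures. In each genotype, 2 of the 10 fell past the threshold after TGF-β (Slc1a2 and Glul) and none rose past it. At an adjusted p under 0.05 in edgeR without the fold limit, 7 were lower in WT and 6 in RGC-32 KO, and 1 was higher in each. The 10 microglia or macrophage markers summed to between 1028 and 1363 CPM, with 1 called higher in each genotype. In WT control and TGF-β overlapped, at 1363 and 1116 against 1342 and 1028 CPM, and in RGC-32 KO both stimulated libraries were lower, at 1041 and 1166 against 1325 and 1190 CPM. Meningeal fibroblast markers (9 of 10 tested) went in sum from 4572 and 5868 CPM in WT control to 9110 and 10271 in stimulated WT cultures, and from 3937 and 3778 to 6964 and 6812 CPM in RGC-32 KO, with 4 called higher and 2 lower in WT, and 4 higher and 0 lower in RGC-32 KO. Most of this sum was the collagens Col1a1 and Col1a2, together 2954 and 3561 CPM in WT control and 6968 and 8068 after TGF-β. The other 7 tested overlapped, at 1618 and 2307 against 2142 and 2202 CPM in WT, and were close in RGC-32 KO, at 1542 and 1592 against 1965 and 1607 CPM, and Dcn and Ogn were the 2 called lower in WT. Both splits were made after the values were seen. Ependymal markers (7 of 8 tested) moved the other way, from 397 and 459 to 278 and 248 CPM for WT, and from 420 and 472 to 299 and 313 CPM in RGC-32 KO, with 7 and 4 called lower. Oligodendrocyte lineage markers (8 of 9 tested) summed to 379 to 400 CPM in the controls and 466 to 625 CPM after TGF-β, with 1 called higher and 2 lower in WT and 2 and 2 in RGC-32 KO. This rise rested on Cspg4, a proteoglycan also found on pericytes, with 38.5 and 25.4 CPM in WT control and 257 and 302 after TGF-β, and 33.9 and 24.1 against 153 and 220 CPM in RGC-32 KO. The other 7 summed to 352 and 354 CPM in WT control and 286 and 323 after TGF-β, and to 366 and 376 against 313 and 366 CPM in RGC-32 KO, and Cnp and Pdgfra were the 2 called lower in both genotypes. Endothelial markers (6 of 8 tested) summed to 104 to 132 and 71.1 to 84.4 CPM, with 1 higher and 1 lower in WT and 1 and 2 in RGC-32 KO. Of 10 neuron markers, 5 were in the table, summing to 280 to 397 CPM with 1 called higher in each genotype. The other 5, among them Rbfox3, Snap25 and Dcx, were not among its rows. None of the 10 proliferation markers was called, and they summed to 277 to 381 CPM. The part of these cell type markers in the changes of the 9 factors was not tested.

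CPM divides the counts by library totals that were normalized with TMM. To be called a DEG (differentially expressed gene), the log2 fold change had to reach 0.6 in either direction and the adjusted p had to be under 0.05 in edgeR's quasi-likelihood test, adjusted over the 13509 genes. The plot of CPM by group holds every library for the 9 factors.

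**Figure D1:**
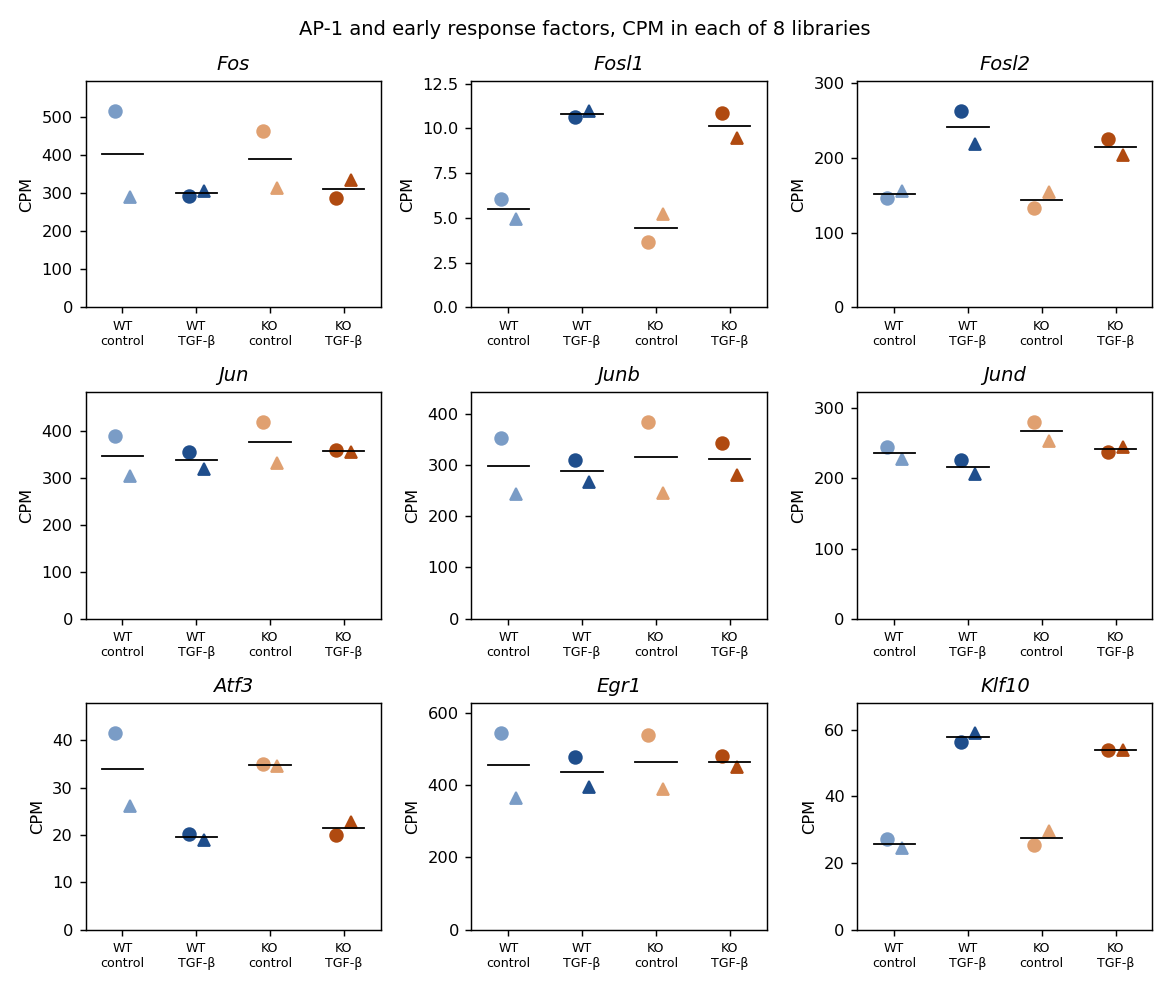
CPM (vertical axes, starting at 0) of each of the 9 factors in the 4 groups; circles are replicate 1, triangles replicate 2 and lines the means of the 2 libraries. Fosl1, Fosl2 and Klf10 stood higher and Atf3 lower in both TGF-β libraries of each genotype, while Fos, Junb and Egr1 differed more between the control libraries than between control and TGF-β.

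Among the FOS family, whose proteins need a JUN partner to bind DNA, Fosl2 and Fosl1 rose and Fos, the founding member, did not pass the test. Fosl2 encodes FRA-2, which lacks the strong activation domain of FOS and is more stable. It had 146 and 157 CPM in WT control and 264 and 218 CPM in stimulated WT cultures, and 134 and 154 CPM in unstimulated RGC-32 KO cultures and 226 and 204 CPM in stimulated RGC-32 KO cultures. Both stimulated libraries were above both controls in each genotype. The log2 fold change was 0.67 in WT (SE 0.11, adjusted p = 0.0032), against 0.58 in RGC-32 KO (SE 0.11, adjusted p = 0.00708), so the second passed the test on p and lay under the limit of 0.6. Its place on either side of that limit moved with single libraries, since the value was 0.54 in WT without WT TGF-β replicate 1, and 0.68 and 0.63 in RGC-32 KO without control replicate 2 or TGF-β replicate 2.

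Fosl1 encodes FRA-1, often present at low levels in resting cells. It was the lowest of the 9, with 6.06 and 4.95 CPM in WT control against 10.6 and 11.0 CPM in stimulated WT cultures, and 3.64 and 5.21 CPM in unstimulated RGC-32 KO cultures against 10.9 and 9.45 CPM in stimulated RGC-32 KO cultures. The groups did not overlap in either genotype. These values rest on 57 to 94 counts in the control libraries and 143 to 192 in the stimulated ones. The log2 fold change was 0.97 in WT (SE 0.18, adjusted p = 0.00592), against 1.19 in RGC-32 KO (SE 0.19, adjusted p = 0.00372). Its range was 0.81 to 1.12 for WT, and for RGC-32 KO 0.94 to 1.48 when a library of the comparison was left out. On chromosome 19 (5447547 to 5455946, plus strand, GRCm38), 1163 of the 2033 exonic bases of Fosl1 are shared with Ccdc85b on the minus strand. The libraries were not stranded, so reads from the shared stretch could not be given to one gene by strand. Ccdc85b had 786 to 996 counts per library and log2 fold changes of 0.11 (adjusted p = 0.197) and 0.05 (adjusted p = 0.545).

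Fos had 516 and 290.5 CPM in WT control and 293 and 305 CPM in stimulated WT cultures. In RGC-32 KO it had 464 and 314 CPM in control and 287 and 334 CPM after TGF-β. One control library of each genotype was high and the other lay near or within the range of the stimulated libraries. The log2 fold change was -0.43 in WT (SE 0.26, 95% interval -1.04 to 0.18, adjusted p = 0.247), against -0.32 in RGC-32 KO (SE 0.26, -0.93 to 0.29, adjusted p = 0.393). A single control library set the size in WT, with 0.04 without WT control replicate 1 and -0.80 (adjusted p = 0.0326, past the threshold) without WT control replicate 2. For RGC-32 KO, leaving out control replicate 1 gave -0.03 and leaving out control replicate 2 gave -0.58.

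Within the FOS family the mix of transcripts was read from the deposited FPKM values, which are scaled to transcript length and so allow genes to be set side by side. Fosl2 made up 8.15% and 14.2% of the summed FPKM of Fos, Fosb, Fosl1 and Fosl2 in WT control and 21.8% and 16.8% in stimulated WT cultures. In RGC-32 KO its share was 8.26% and 13.4% in control and 20.2% and 15.7% after TGF-β. The groups did not overlap in either genotype, but the highest control and the lowest stimulated library were only 14.2% and 16.8% in WT and 13.4% and 15.7% in RGC-32 KO. Fos was the most abundant of the 4 in every library, at 69.2% to 76.2% of the sum in the controls and 58.1% to 68.3% after TGF-β. The sum itself was 281 and 166 FPKM in WT control, 161 and 170 in stimulated WT cultures, 253 and 176 in unstimulated RGC-32 KO cultures, and 165 and 175 in stimulated RGC-32 KO cultures, so the low Fosl2 share in replicate 1 of each control went with a high sum. Fosl1 was the smallest part, at 0.342% and 0.629% in WT control and 1.63% and 1.32% after TGF-β, and at 0.277% and 0.532% against 1.35% and 0.906% in RGC-32 KO, again without overlap.

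**Figure D2:**
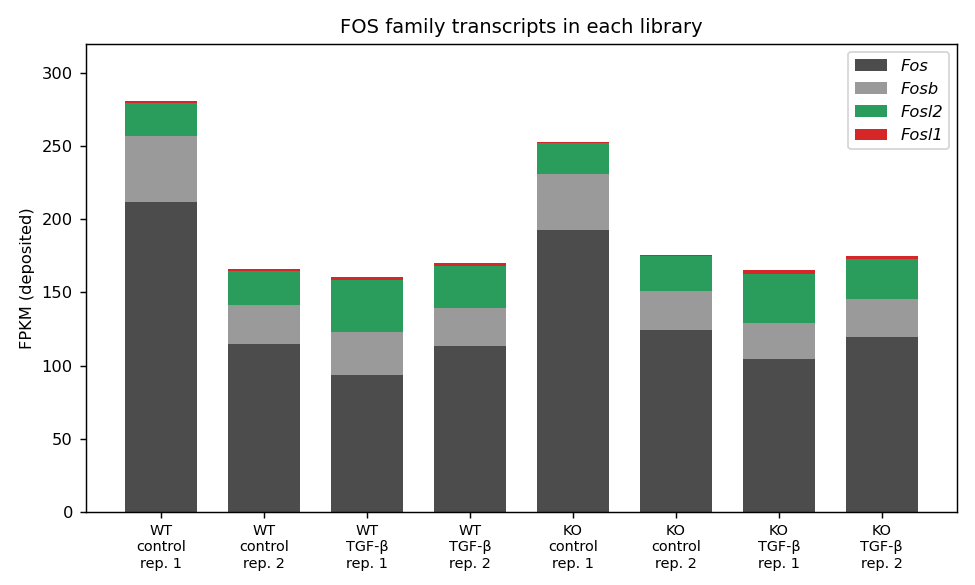
Stacked bars of deposited FPKM (vertical axis, from 0) for Fos, Fosb, Fosl2 and Fosl1 in each of the 8 libraries. The Fosl2 band was 8.15% to 14.2% of the bar in the controls and 15.7% to 21.8% after TGF-β, and replicate 1 of each control had the tallest bar.

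The JUN family, which can form AP-1 without FOS, did not pass the test at any of its 3 genes. Jun had 390 and 305 CPM in WT control and 356 and 319 CPM in stimulated WT cultures, and 420 and 333 CPM in unstimulated RGC-32 KO cultures and 359 and 355 CPM in stimulated RGC-32 KO cultures. The stimulated libraries lay within the range of the controls in both genotypes. Its log2 fold changes were -0.04 (95% interval -0.36 to 0.28, adjusted p = 0.844) and -0.08 (-0.40 to 0.25, adjusted p = 0.717). Junb, an AP-1 subunit that is induced early and can oppose JUN, had 353 and 244 CPM in WT control, 309.5 and 266 in stimulated WT cultures, 385 and 245 in unstimulated RGC-32 KO cultures, and 344 and 281 in stimulated RGC-32 KO cultures. The control libraries again enclosed the stimulated ones. Its values were -0.05 (-0.60 to 0.50, adjusted p = 0.891) and -0.01 (-0.56 to 0.54, adjusted p = 0.978), and both intervals reach close to the fold limit.

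Jund, the steadily expressed JUN, had 244 and 228 CPM in WT control and 226 and 206 CPM in stimulated WT cultures, and 281 and 253 CPM in unstimulated RGC-32 KO cultures and 238 and 246 CPM in stimulated RGC-32 KO cultures. Here the stimulated libraries were below the controls in both genotypes, by little. The log2 fold change was -0.13 (95% interval -0.30 to 0.05, adjusted p = 0.239) in WT and -0.14 (-0.32 to 0.03, adjusted p = 0.193) in RGC-32 KO. Both intervals of Jund exclude a change of 0.6 in either direction. Jund shares 877 of its 1668 exonic bases with an antisense transcript, Gm11175, Jun shares 232 with Junos and Junb shares 173 with Prdx2 on the other strand, so without strand their counts may hold reads of these partners. On the FPKM scale, the mix within the JUN family was 43.5% to 48.4% Junb, 30.4% to 30.6% Jun and 21.2% to 25.9% Jund in WT control, and 46.8% to 48.2%, 30.0% to 30.6% and 21.8% to 22.6% in stimulated WT cultures. In RGC-32 KO, Junb made up 42.7% and 49.2% of the sum in control and 48.6% and 47.3% after TGF-β. Unlike Fosl2 among the FOS genes, no JUN gene had a share that separated control from stimulated libraries in WT.

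Atf3, a stress-induced ATF protein that pairs with JUN and often represses, was the only one of the 9 called lower. It had 41.6 and 26.2 CPM in WT control and 20.3 and 18.9 CPM in stimulated WT cultures, and 35.0 and 34.7 CPM in unstimulated RGC-32 KO cultures and 20.0 and 22.8 CPM in stimulated RGC-32 KO cultures. The groups did not overlap in either genotype, and the RGC-32 KO controls were close together where the WT controls were not. Its log2 fold change was -0.79 in WT (SE 0.19, adjusted p = 0.0172), against -0.70 in RGC-32 KO (SE 0.19, adjusted p = 0.0296). In WT the size rested on WT control replicate 1, with -0.42 (adjusted p = 0.0306, under the fold limit) without it and -1.10 without WT control replicate 2. The call was also lost without WT TGF-β replicate 1 or 2 (adjusted p = 0.0581 and 0.0865) and, in RGC-32 KO, without any 1 of its 4 libraries (-0.61 to -0.82, adjusted p = 0.072 to 0.139).

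Egr1, an immediate early zinc finger factor downstream of MAP kinases, was among the most abundant and did not pass the test. It had 544 and 364 CPM in WT control, 478 and 395 CPM in stimulated WT cultures, 538 and 389 CPM in unstimulated RGC-32 KO cultures, and 479 and 449 CPM in stimulated RGC-32 KO cultures. The control libraries enclosed the stimulated ones in both genotypes. Its log2 fold change was -0.06 in WT (95% interval -0.54 to 0.43, adjusted p = 0.853) and 0.00 in RGC-32 KO (-0.48 to 0.48, adjusted p = 0.997). Its sign turned with the library left out, from 0.26 without WT control replicate 1 to -0.34 without WT control replicate 2.

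Klf10, first described as TGF-β inducible early gene 1, encodes a repressor that lowers the inhibitory Smad7. It had 27.3 and 24.4 CPM in WT control and 56.2 and 59.0 CPM in stimulated WT cultures, and 25.5 and 29.5 CPM in unstimulated RGC-32 KO cultures and 54.0 and 53.9 CPM in stimulated RGC-32 KO cultures. Its groups stood far apart in comparison with the spread of the replicates. Its log2 fold change was 1.16 in WT (SE 0.09, adjusted p = 0.000175), against 0.97 in RGC-32 KO (SE 0.09, adjusted p = 0.000374). Klf10 kept its call without each library of either genotype, at 1.06 to 1.24 in WT and 0.85 to 1.08 in RGC-32 KO, and Smad7 rose as well, by 1.35 (adjusted p = 6.19e-05) and 1.16 (adjusted p = 7.28e-05).

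**Figure D3:**
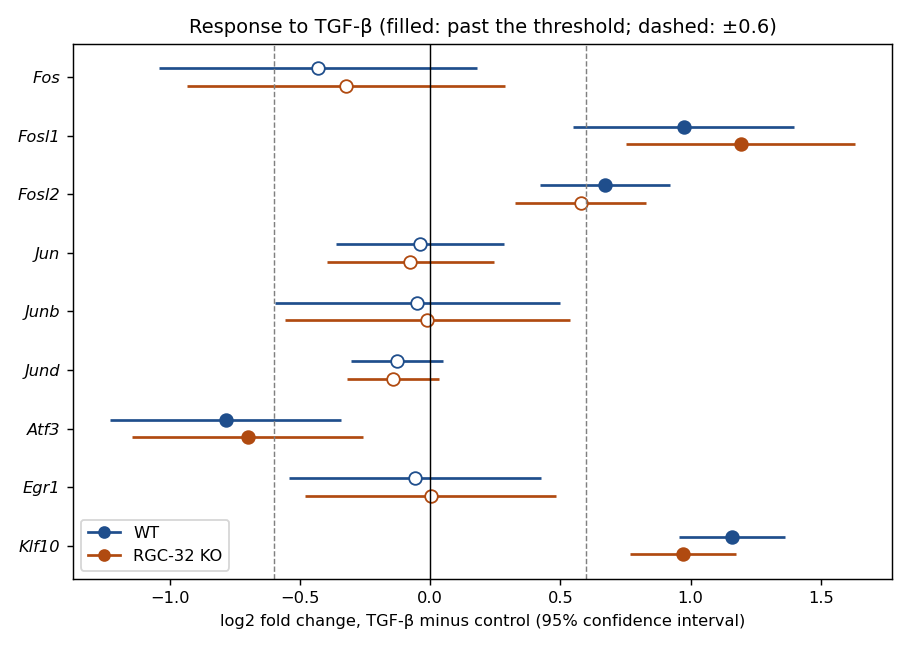
Log2 fold change of TGF-β against control (horizontal axis) for each of the 9 factors in WT (blue) and RGC-32 KO (orange) astrocytes, with 95% confidence intervals; filled points passed the threshold and dashed lines mark ±0.6. Klf10 and Fosl1 were past it on the high side and Atf3 on the low side in both genotypes, and the intervals of Fos, Jun, Junb, Jund and Egr1 cross 0.

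Counted over the list, 3 of the 9 factors were called higher in WT where 7.72% of all genes tested were, and 1 was called lower where 5.65% were, or 4 in all against 13.4%. In RGC-32 KO, 2 were called higher (6.61% of all genes), 1 lower (4.93%), and 3 in all (11.5%). Without the fold limit, 4 of the 9 had an adjusted p under 0.05 in each genotype, against 32.9% of all genes in WT and 28.4% in RGC-32 KO, so these shares were near the background. Klf10 and Fosl1 were called higher in both genotypes (5.63% of all genes) and Atf3 lower in both (3.56%). The 9 log2 fold changes had a median of -0.05 for WT and -0.01 for RGC-32 KO, beside -0.00 and 0.00 over all genes. Groups without overlap are common with 2 libraries each and are no sign of a change by themselves. In both genotypes, 3 factors did not overlap on the high side (35.4% of all genes in WT and 34.3% in RGC-32 KO) and 2, Atf3 and Jund, on the low side (33.7% and 32.9%). This made 5 of 9 in each genotype, against 69.1% and 67.3% of all genes.

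On the scale of FPKM, levels can be ordered between genes. In WT control the mean FPKM was 163 ± 68.4 for Fos, 160 ± 38.9 for Junb, 134 ± 38.5 for Egr1, 106 ± 17.4 for Jun and 80.6 ± 2.21 for Jund (SD, n = 2). Neighbours among Fos, Junb, Egr1 and Jun overlapped in their libraries, so their order is not settled. Then came Fosl2 at 23.3 ± 0.534, Atf3 at 15.6 ± 4.31, Klf10 at 8.11 ± 0.613 and Fosl1 at 1.00 ± 0.0598 FPKM (SD, n = 2). After TGF-β, Klf10 at 15.5 ± 0.295 FPKM stood above Atf3 at 7.89 ± 0.546 in WT, and at 15.3 ± 0.611 above 8.94 ± 0.691 in RGC-32 KO (SD, n = 2), the reverse of their order in the controls. Fosl1 remained last, at 2.43 ± 0.258 and 1.90 ± 0.456 FPKM (SD, n = 2).

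The comparison of the genotypes asks whether RGC-32, a protein known to act with SMAD3, altered these factors or their response. None of the 9 passed the test between RGC-32 KO and WT in the controls (smallest adjusted p 0.725, 0.037% of all genes called) or after TGF-β (smallest adjusted p 0.47, 0.0444% called), and DESeq2 and limma-voom called none either. In edgeR the targeted gene Rgcc itself was not called, at -0.97 (adjusted p = 0.78) in the controls and -2.54 (adjusted p = 0.133) after TGF-β. A missed call in this comparison therefore does not show an absent difference. At an unadjusted p under 0.05 there was 1 of 9 in the controls, Jund, against 6.84% of all genes, and 0 of 9 after TGF-β, against 11.7%. Jund was higher in RGC-32 KO by 0.18 (95% interval 0.00 to 0.35) in the controls and by 0.16 (-0.02 to 0.34) after TGF-β. It was the only factor whose RGC-32 KO libraries were all above the WT libraries in both conditions, which 15.5% and 23.9% of all genes were in the 2 comparisons taken singly. On the low side, none of the 9 stood apart in the controls (17.4% of all genes) and Klf10 did so after TGF-β (22.4%), at 54.0 and 53.9 CPM against 56.2 and 59.0, with a difference of -0.09 (-0.29 to 0.10, adjusted p = 0.713).

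Whether the response differed between genotypes was tested with an interaction term, written as the log2 fold change in RGC-32 KO minus that in WT. It ran from -0.19 for Klf10 (95% interval -0.47 to 0.10) to 0.22 for Fosl1 (-0.40 to 0.83), and every adjusted p was 1.00 in edgeR. Of all genes, 0% were called for the interaction. At an unadjusted p under 0.05 there were 0 of the 9 factors and 2.82% of all genes. For Fosl2 the difference was -0.09 (-0.45 to 0.26) and for Atf3 0.08 (-0.54 to 0.71). The intervals of Klf10, Fosl2, Jun (-0.49 to 0.42) and Jund (-0.27 to 0.23) exclude a difference of 0.6 in either direction, while those of Fos (-0.76 to 0.97), Fosl1, Junb (-0.73 to 0.81), Atf3 and Egr1 (-0.62 to 0.74) do not. A missed threshold does not show that the genotypes respond alike.

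The spread between the control libraries was itself a feature of these genes. Replicate 1 of WT control exceeded replicate 2 by 1.78-fold for Fos, 1.45-fold for Junb, 1.50-fold for Egr1 and 1.28-fold for Jun, and replicate 1 of RGC-32 KO control exceeded its replicate 2 by 1.48-, 1.57-, 1.38- and 1.26-fold. These 4 of the 9 factors, and 5 of 13 other early response genes (Ier2, Nr4a1, Btg2, Zfp36 and Arc), were at least 1.25-fold higher in replicate 1 of both controls, against 404 of the 13509 genes (2.99%). The limit of 1.25 was chosen after the values were seen, and the libraries are shared by all genes, so this is a description. Of 9 further early response genes, 2 passed this limit in both controls, Fosb (1.64- and 1.36-fold) and Egr2 (1.84- and 1.32-fold), while others such as Egr3 (1.73- and 1.20-fold), Dusp1 (1.60- and 1.14-fold) and Klf4 (0.902- and 0.894-fold) did not. The factors that rose after TGF-β did not pass it, with 0.933- and 0.867-fold for Fosl2, 1.12- and 0.862-fold for Klf10, and 1.22- and 0.698-fold for Fosl1. Jund, which did not pass the test for TGF-β, did not either, at 1.07- and 1.11-fold. A wide spread between 2 control libraries makes a call harder, so this contrast was in part set by the test. Atf3 differed in WT alone (1.59- and 1.01-fold). In the stimulated groups the same ratios were 0.861 to 0.959 for Fos and 1.01 to 1.22 for Jun, Junb and Egr1. Timp1 ran opposite in the controls, at 73.8 and 199 CPM in WT and 86.4 and 189 CPM in RGC-32 KO. What set the control libraries apart was not tested. With both control libraries numbered 1 left out, a choice made after seeing these values, 3 factors were called in WT, all of them higher, and 3 in RGC-32 KO, and Fos had log2 fold changes of 0.03 and -0.03.

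**Figure D4:**
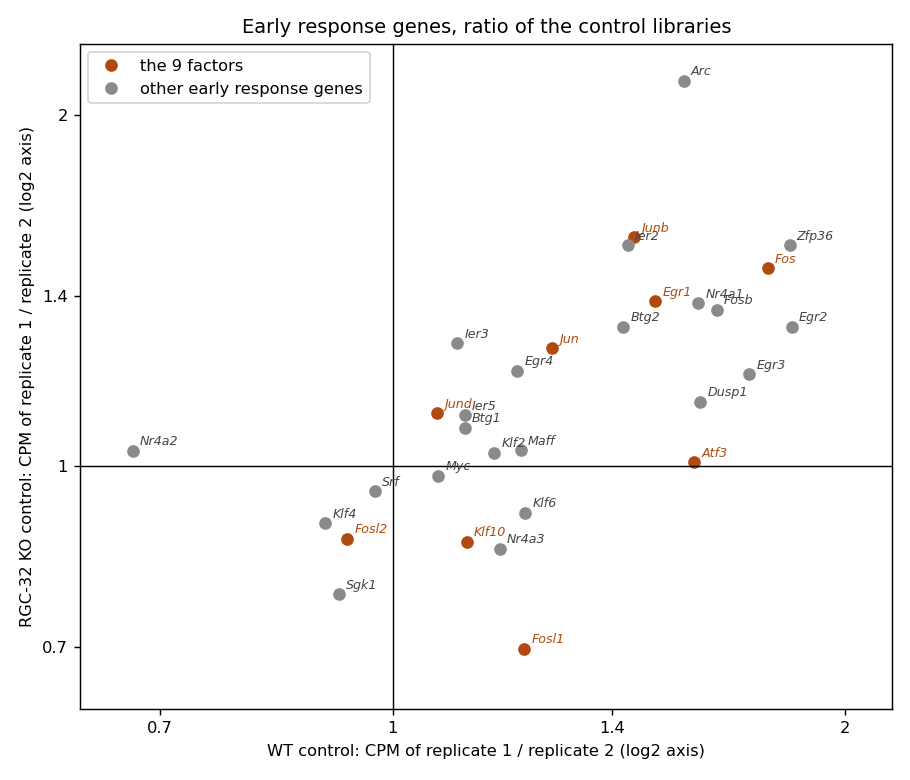
CPM of replicate 1 divided by replicate 2 in WT control (horizontal, log axis) and RGC-32 KO control (vertical, log axis) for the 9 factors (orange) and other early response genes (grey). Fos, Jun, Junb and Egr1 lie above 1.25 on both axes, and Fosl2 lies below 1 on both.

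The 250 bases before the start sites of Fos, which did not pass the test, and of Atf3, which was called lower, are shown as given by RefSeq on GRCm38.p6, since both hold an element that ATF proteins can bind. Of the 9 factors, 6 were searched (Fos, Fosl2, Jun, Junb, Jund and Atf3). Fosl1, Egr1 and Klf10 were not searched, Egr1 because entries on its chromosome, 18, were left out. Capitals mark matches, on either strand, to the core TGACG of the cyclic AMP response element (CRE), at which CREB and ATF proteins bind, and to TATAAA, the TATA box. The first sequence lies at chr12:85473640-85473889 on the plus strand. The second lies at chr1:191183334-191183583 on the minus strand, and is written in the direction of the gene. It precedes an internal start of Atf3, since the annotated gene runs from 191170296 to 191218039 and its longest transcript starts farther upstream. The third is 29 bases at chr5:32136383-32136411 on the plus strand, within the annotated first exon of a Fosl2 transcript, around a match to GCGNGGGCG, the site of EGR proteins, in capitals.
Fos: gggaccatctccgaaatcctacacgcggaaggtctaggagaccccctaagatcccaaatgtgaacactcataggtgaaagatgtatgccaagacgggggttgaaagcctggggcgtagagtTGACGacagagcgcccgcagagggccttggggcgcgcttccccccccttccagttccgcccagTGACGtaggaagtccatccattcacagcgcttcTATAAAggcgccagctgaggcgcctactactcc
Atf3: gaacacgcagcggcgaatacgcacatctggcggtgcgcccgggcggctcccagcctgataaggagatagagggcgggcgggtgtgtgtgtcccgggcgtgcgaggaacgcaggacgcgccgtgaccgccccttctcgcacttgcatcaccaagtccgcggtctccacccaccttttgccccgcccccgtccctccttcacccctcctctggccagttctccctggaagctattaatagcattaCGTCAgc
Fosl2: ccggctgcgcGCGGGGGCGgaagggcgcg

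The CRE core began 129 and 66 bases before the start of Fos, with a TATA box at 33 bases before it. In Junb it began 106 bases before the start. In Atf3 it was matched as its reverse complement in the sequence as printed (CGTCA), 7 to 3 bases before this internal start. This core was present in 17.8% of the 32851 RefSeq promoters of the same length, and the TATA box in 12.4%. The EGR site of Fosl2, 79 bases before its start, was matched in 4.7% of promoters. No match overlapped another. The AP-1 site TGANTCA (6.75% of promoters), the SMAD box GTCTAGAC (0.167%) and the CArG box of serum response factor (1.47%) were matched in 0 of the 6. This says only that these letters are not in these windows, and nothing about Egr1, Fosl1 or Klf10. The CRE core was matched both in a gene that did not pass the test (Fos) and in one called lower (Atf3), and the matches are a description of letters, not of bound sites.

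The other genes around AP-1 were taken from lists, which were not tested as sets. In the lists each gene was read against the 13.4% of genes called in WT and 11.5% in RGC-32 KO. Of 9 other AP-1 family genes tested (of 10), 0 were called in WT and 1 in RGC-32 KO, and the medians were -0.05 and -0.07. The one was Maff, a small MAF protein without an activation domain, which went from 44.4 and 36.5 to 54.7 and 60.6 CPM in WT (0.51, adjusted p = 0.00592) and from 39.2 and 38.0 to 58.8 and 58.9 CPM in RGC-32 KO (0.61, adjusted p = 0.00373). Its call was lost in RGC-32 KO without control replicate 2 or TGF-β replicate 2 (0.58 and 0.58) and gained in WT without control replicate 1 (0.66). Its relative Mafk had 0.55 and 0.60 (adjusted p = 0.00137 and 0.00117), just under the fold limit. Fosb, the remaining FOS gene, had -0.13 and -0.18 (adjusted p = 0.715 and 0.598).

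Of 10 other EGR and KLF factors, 2 were called higher in each genotype and 0 lower, with medians of -0.07 and -0.05. Egr2, the relative of Egr1, rose where Egr1 did not, from 28.1 and 15.2 to 53.6 and 64.6 CPM in WT (1.45, SE 0.26, adjusted p = 0.00486) and from 23.5 and 17.9 to 48.3 and 60.2 CPM in RGC-32 KO (1.39, SE 0.26, adjusted p = 0.00719). In RGC-32 KO its call was lost without control replicate 2 (1.20, adjusted p = 0.0557). Klf4 rose by 0.60 (adjusted p = 0.00547) and 0.61 (adjusted p = 0.00735), at the edge of the fold limit, and lost its call in WT without control replicate 1 (0.53) or TGF-β replicate 2 (0.57) and in RGC-32 KO without control replicate 1 (0.51) or TGF-β replicate 1 (0.43). Of 13 other early response genes, 2 were called higher in each genotype and 0 lower. Sgk1, a kinase downstream of PI3 kinase, rose from 78.9 and 85.6 to 199 and 161 CPM in WT (1.13, adjusted p = 0.000875) and from 74.3 and 95.6 to 188 and 191 CPM in RGC-32 KO (1.16, adjusted p = 0.000963). Btg1, which restrains proliferation, rose by 1.06 (adjusted p = 0.000124) and 1.07 (adjusted p = 0.000148). The medians of this list were -0.02 and 0.07.

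Of 13 MAP kinases and their nuclear targets upstream of AP-1, 1 was called higher in WT and 0 in RGC-32 KO, with medians of 0.03 and 0.08. The one was Elk4, a partner of serum response factor, at 12.4 and 10.7 against 21.2 and 21.0 CPM in WT (0.87, adjusted p = 0.00344) and 11.3 and 13.4 against 14.0 and 17.6 CPM in RGC-32 KO (0.35, adjusted p = 0.105). The difference of its responses was -0.51 (SE 0.20, 95% interval -0.98 to -0.04), with an adjusted p of 1.00. Of 9 MAP kinase phosphatases, Dusp4 was called higher in both genotypes, by 1.03 (adjusted p = 0.00177) and 0.91 (adjusted p = 0.00412), and no other was called. The medians were 0.21 and 0.06.

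Of 12 textbook AP-1 targets, 11 were tested, of which 2 rose and 1 fell in WT, and 3 rose and 1 fell in RGC-32 KO, with medians of 0.21 and 0.37. Timp1, an inhibitor of matrix metalloproteinases, reached 780 and 710 CPM in WT TGF-β from 73.8 and 199 in control (2.45, SE 0.48, adjusted p = 0.00709) and 768 and 596 CPM in stimulated RGC-32 KO cultures from 86.4 and 189 (2.31, SE 0.48, adjusted p = 0.0104), a call lost without RGC-32 KO control replicate 1 (1.84, adjusted p = 0.053). Plaur, the urokinase receptor, rose by 1.25 (adjusted p = 0.00032) and 1.10 (adjusted p = 0.000668). Ccnd1, cyclin D1 of the G1 phase, fell by 0.81 on the log2 scale in WT (adjusted p = 0.000702) and by 0.74 in RGC-32 KO (adjusted p = 0.00123). Mmp9, a gelatinase, had 0.65 in WT (adjusted p = 0.0681) and was called in RGC-32 KO at 1.03 (adjusted p = 0.0173), but not without RGC-32 KO control replicate 1 (0.75) or TGF-β replicate 1 (0.77). These genes moved in both directions, and each answers to other factors as well.

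Of 9 direct TGF-β targets tested, 7 were called higher in each genotype and 0 lower, with medians of 1.63 and 1.60. Pmepa1, which limits SMAD signaling, rose by 2.63 and 2.65 (adjusted p = 0.000328 and 0.000395), Ctgf, a matricellular protein, by 1.75 and 1.87 (adjusted p = 0.000282 and 0.00028), and Skil, a SMAD corepressor, by 1.69 and 1.60 (adjusted p = 0.000102 and 0.000137). Klf10 had changes smaller than these 3 genes in both genotypes. These 3 were named for the size of their changes in WT, so this alone does not rank Klf10 within the list. Of 10 heat shock genes, read as a sign of cell stress, 2 were called higher (Hspb1 and Hspa5) and 2 lower (Hspa1a and Hspa1b) in each genotype. Hspa1a fell by 0.79 on the log2 scale in WT (adjusted p = 0.00346) and 0.80 in RGC-32 KO (adjusted p = 0.00378), close in size to Atf3, and whether the changes are linked was not tested. Hspa1b was called lower at -0.76 and -0.78 and lost its call in WT without control replicate 1 (-0.49), TGF-β replicate 1 or TGF-β replicate 2, and in RGC-32 KO without control replicate 2 or TGF-β replicate 1. Hspb1 lost its call in WT without TGF-β replicate 2 (0.56).

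**Figure D5:**
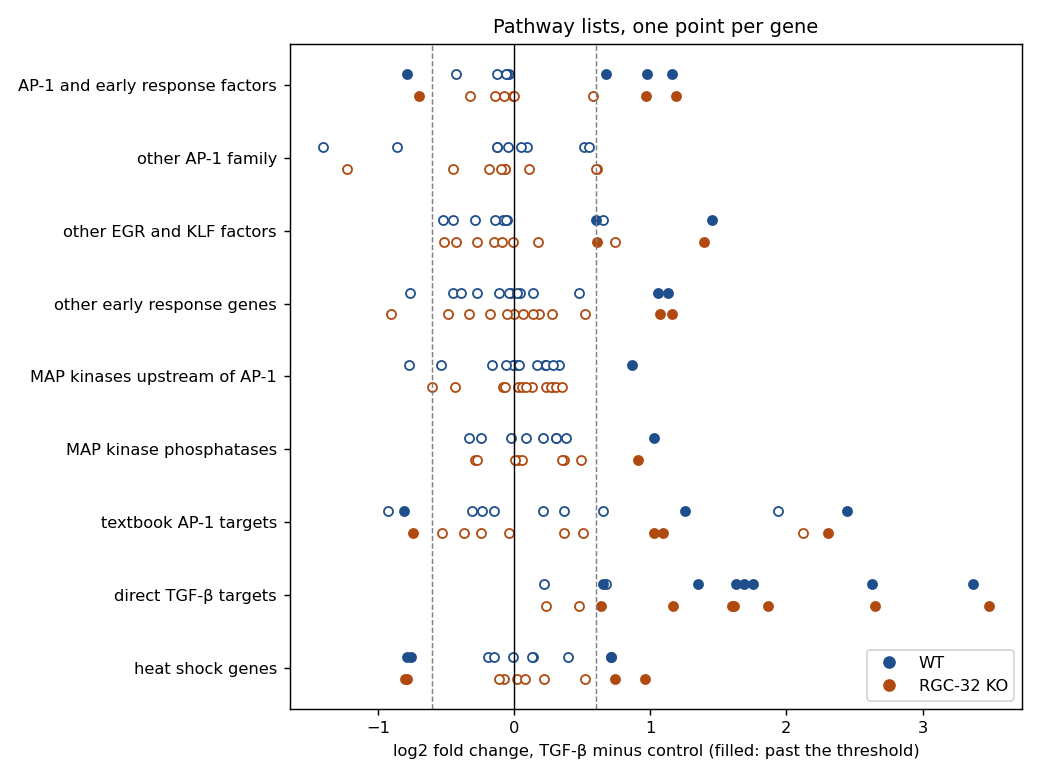
Log2 fold change of TGF-β against control (horizontal axis), 1 point per gene and 1 line per list, in WT (blue) and RGC-32 KO (orange); filled points passed the threshold and dashed lines mark ±0.6. The direct TGF-β targets lie to the right, 7 of 9 of them past the threshold in each genotype, while most points of the AP-1, EGR, KLF and MAP kinase lists are open.

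The genes most alike in pattern to the 4 called factors were found by Pearson's r of log2 CPM over the 8 libraries, which share the TGF-β grouping, so a high r mostly repeats the response. Klf10 was closest to Ndel1 (0.998), Tgds (0.998) and Pcdhgc5 (0.996), whose log2 fold changes in WT were 0.58, 0.54 and 0.68. Fosl1 was closest to Susd2 (0.996), Nipa2 (0.991) and Myo19 (0.990), and Fosl2 was close to Picalm (0.991) and Runx2 (0.991), a RUNT transcription factor with log2 fold changes of 0.66 and 0.60. Atf3 was closest to Sms (0.991), Clcf1 (0.989) and Mfsd7a (0.984), with log2 fold changes of -0.43, -0.50 and -0.70 in WT. Among the 9 factors themselves, Jun, Junb and Egr1 had r of 0.919 to 0.957 with each other and Fosl1, Fosl2 and Klf10 of 0.937 to 0.954, while Atf3 had -0.82 to -0.89 with Fosl1, Fosl2 and Klf10. The first 3 share the difference between the control libraries, and the next 3 share the response to TGF-β.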

How the data were processed

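The 8 libraries were grouped by the genotype and treatment in their labels. The authors deposited raw read counts as whole numbers for 13937 gene names, from unstranded reads aligned with STAR in the VIPER pipeline to mm10 (per the submitters' processing notes). The program and annotation used for counting are not given in the sources used here. The authors also deposited FPKM from Cufflinks, per length and library size, used here for levels between genes and as an alternative with pseudocounts of 1 and 0.1 (genes with FPKM of at least 1 in at least 2 libraries). The deposited DESeq tables hold the authors' own log2 fold changes and p-values and were not used. In the count table, 21 names had become dates and 1 was repeated, and these stayed separate.

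Counts were filtered with filterByExpr (13509 genes left), scaled by TMM and fitted in 1 quasi-likelihood model of the 4 groups in edgeR 4.0.16 (R 4.3.3), with two-sided p-values adjusted by the Benjamini-Hochberg method. The study used DESeq2 and limma, which are alternatives here (DESeq2 1.42.0, limma 3.58.1). The SE comes from the test statistic, intervals are 95%, and a prior count of 2 entered log2 CPM. The edgeR fit was also run on counts simulated from the levels and dispersions of these data, and the outcome is not reported here. Same-numbered libraries deviated in opposite directions between control and TGF-β, with r = -0.34 in WT and -0.35 in RGC-32 KO. Across the genotypes, r was -0.48 for WT control with RGC-32 KO TGF-β and -0.51 for WT TGF-β with RGC-32 KO control. Same-numbered libraries deviated together between the genotypes within a treatment (0.49 in control and 0.25 after TGF-β). As the same numbers did not go together across treatments, no block was fitted in the reported model. Alternatives were other tests, filters, scalings, corrections and thresholds, a block, FPKM, and leaving out each library.

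All 9 factors are named. From each list of related genes, up to 4 of the largest changes in WT among those called in at least 1 genotype are named, with genes told beside a factor and the 3 most alike to each called factor. Some genes that this rule names are not reported here. The factors and lists were chosen with earlier results of these data known. The list of TGF-β targets named Ctgf under both its symbols, so 9 of its 10 entries were found. Gene positions come from GENCODE M21 and promoter sequences from RefSeq. Total counts bound the precision, and replicates differed by more than counting noise (chi-square per degree of freedom from 6.26 to 10.4).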

Additional observations from a re-analysis of the deposited data

How the results depend on the processing

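Of the 9 factors, 4 were called in WT and 3 in RGC-32 KO. The strictest tests reduced this to 1 in WT and 1 in RGC-32 KO with edgeR's glmTreat against the fold limit of 0.6, and to 1 in WT (Klf10) and 0 in RGC-32 KO with Bonferroni's correction, where Klf10 had an adjusted p of 0.0624. When single libraries were left out, the counts ran from 2 to 5 in WT, the lowest without WT TGF-β replicate 1 and the highest without WT control replicate 2, and from 2 to 3 in RGC-32 KO. With the replicate block, which rests on a number shared by the labels only, 4 were called in WT and 3 in RGC-32 KO, and it gave 0 in the genotype comparisons and the interaction, so it changed no count. With the numbers crossed in the TGF-β groups, chosen after seeing the data, the block also gave 4 and 3, and 0 in the genotype comparisons and the interaction. Over all genes this crossed block called 1167 higher and 938 lower in WT, and 1040 and 812 in RGC-32 KO. After TGF-β it called 11 genes higher and 25 lower in RGC-32 KO against WT, where 6 were called in the reported model. DESeq2 and limma-voom on all 8 libraries each gave 4 and 3, and no called factor reversed its direction in any alternative. Klf10 was called in WT in all 24 alternatives (0.86 to 1.24). Fosl2 in WT fell under the fold limit with upper quartile scaling (0.59) and on log2 FPKM (0.43 and 0.44), Atf3 in WT lost its call with edgeR on 4 libraries (adjusted p = 0.0507), and Fosl1 lost its call with glmTreat (adjusted p = 0.174 in WT and 0.0671 in RGC-32 KO). On log2 FPKM the median of all genes shifted by -0.11 to -0.13, so changes there are relative to that shift. Over all genes, 1043 were called higher and 763 lower in WT and 893 and 666 in RGC-32 KO as reported, whereas with upper quartile scaling 857 and 1055, and 747 and 895, were, and on log2 FPKM 36.2% to 46.6% of the calls were higher. The causes of these differences were not tested beyond the settings' own construction. Egr1 in RGC-32 KO had the reported sign in 11 of 24 alternatives and has no settled direction, and signs of Fos, Jun and Junb also turned in some. With 2 libraries a group, the control libraries of Fos, Jun, Junb and Egr1 were spread apart, and Fosl1 rested on counts of 57 to 192 per library. How far spread and depth each limited these genes was not tested.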
